A study of Saccharomyces cerevisiae with 14 samples.

Results

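The transcriptome of budding yeast growing on glucose with proline as the nitrogen source was described from the 3 arrays labelled -10 min, out of 14 arrays in the series. The rule took every array of that time, 1 from each of the cultures BY003, BY008 and BY012, and every probe set that the array annotation pairs with a Saccharomyces cerevisiae gene. This gave 5449 genes. The strain was the wild type YSBN6, kept in batch culture in a fermentor (pH 5, 30 °C) with 20 g/L glucose and 200 mg/L proline, and sampled as 20 mL of broth at an OD600 of about 1, which was 10 min before a 400 mg/L pulse of glutamine. All 3 cultures shared strain, medium and time, no glutamine had been added, and the labels give no control group on another nitrogen source. The comparisons are therefore between genes on the same arrays and between the 3 cultures, and with 1 group there was no contrast to test.

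Yeast takes up proline through permeases of the plasma membrane and oxidises it to glutamate in the mitochondrion. Proline is a poor nitrogen source, and on it the cell relieves nitrogen catabolite repression, the control by GATA transcription factors that keeps genes for the uptake and breakdown of other nitrogen compounds low when a preferred source such as glutamine is present. Glucose acts on another axis: it favours fermentation and represses genes for the use of other carbon sources.

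All levels below are log2 of the deposited intensity of a probe set, and values for 3 arrays are in the order BY003, BY008 and BY012 unless the culture is named. An intensity mixes the amount of a transcript with how strongly its probes respond, so an order of genes is an order of intensity and not of transcript number. The brightest value on these arrays was 15.14, and differences between genes near it may be compressed. A higher value in 1 culture can reflect more cells that express a gene or more RNA per cell, which bulk RNA cannot tell apart. The labels do not state how separate the 3 cultures were beyond their experiment codes, and every value has the precision that 3 arrays allow.

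The arrays were not equally alike. Over genes, Pearson's r was 0.970 between BY003 and BY008, 0.942 between BY003 and BY012, and 0.928 between BY008 and BY012, as a description over genes that share array and probe chemistry. BY012 and BY008 differed by at least 2-fold in 576 genes, or 10.6%, and BY003 and BY008 in 224, or 4.11%. BY012 thus stood farthest from the others, and its median gene level was 11.19 against 11.09 in BY003 and 11.05 in BY008. RNA measures moved too: the 3-prime minus 5-prime difference of the ACT1 control probe sets was 0.75 in BY008, 1.25 in BY003 and 1.17 in BY012, and BY008 was lowest in 7 of 8 such control genes. BY008 was also lowest for 22 of 24 ribosomal RNA probe sets, with a median of 10.78 there against 11.68 for BY003 and 12.48 for BY012. The part of these measures in the differences between cultures given below was not tested.

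The cell type markers mostly followed mating type a, with exceptions in both lists. MFA1, which encodes the a-factor pheromone, had 14.53, 14.56 and 14.43, and STE2, the receptor for alpha-factor, had 13.61, 13.97 and 13.04. Of 7 a-cell genes, 3 lay in the brightest 10% of all genes and 1 in the dimmest 10%, ASG7, a pheromone-response regulator, with 9.37, 8.48 and 8.78. The alpha-factor gene MF(ALPHA)1 had 8.57, 7.25 and 8.10, and STE3, the receptor for a-factor, had 8.18, 8.91 and 8.41. Of the 4 alpha-cell genes, 3 lay in the dimmest 10% of all genes. The remaining gene, SAG1, the alpha-agglutinin gene, went against that split with 11.14, 11.36 and 11.84. HO, the mating-type switching endonuclease, averaged 5.83 ± 0.27 (SD, n = 3 arrays), among the dimmest genes. The haploid-specific gene GPA1, a subunit of the pheromone G protein, had 12.12, 11.81 and 11.77. The 18 haploid-specific and pheromone pathway genes were dimmer as a list, with a median of 10.57 against 11.11 for all genes. Of these, 0 lay in the brightest 10% and 2 in the dimmest 10%. Genes that laboratory auxotrophs often lack gave signals above the median of all genes: URA3, of uracil synthesis, had 12.05, 12.29 and 11.95, and LEU2, of leucine synthesis, had 12.36, 12.96 and 11.87.

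Nearly every gene gave a signal above that of foreign probe sets. The array also carries 1747 probe sets for the fission yeast Schizosaccharomyces pombe, and the 95th percentile of their mean levels was 5.86. Of the 5449 genes, 5360 (98.4%) lay above it and 89 did not, 48 of which have no standard name. The median gene had 11.11, and the means ran between 3.90 and 15.09. In 49 of the 54 gene lists used here, every measured member lay above 5.86. In 12 lists at least as many measured members lay inside the brightest 10% of genes as outside it, and 5 lists were the same for the dimmest 10%. Brightness did not follow gene length over all genes (Spearman's rho -0.0005 across 5449 genes, a description), although the median length was 909 bp in the brightest 10% and 897 bp in the dimmest 10%, against 1236 bp in all genes.

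The brightest genes were glycolytic enzymes, wall proteins and genes of nitrogen scavenging. TDH3 (YGR192C), glyceraldehyde-3-phosphate dehydrogenase, was first with 15.03, 15.14 and 15.09. CCW12, a wall mannoprotein, was second with a mean of 15.02 ± 0.03 (SD, n = 3 arrays), and HOR7, an osmotic stress gene, followed with 14.99, 15.01 and 15.04. The glycolytic and fermentative genes PDC1, CDC19, PGK1, ADH1, GPM1, FBA1 and TPI1 also stood among the 25 brightest, beside the wall protein gene CWP2, the thiol peroxidase AHP1, the carbonic anhydrase NCE103, the cyclophilin CPR1, the acetyl-CoA carboxylase ACC1 and the actin gene ACT1. Nitrogen genes held 4 of the 25 places. These were the asparaginase gene ASP3-1, read by a probe set that several copies share, the ammonium permease gene MEP2, the proline oxidase gene PUT1 and the allantoate permease gene DAL5. HSP12, a membrane-associated heat shock protein, ranked 4 with 14.98, 14.73 and 15.08. The brightest 10% of genes began at a mean of 13.09. Of the 545 genes in that class on each array, 356 were in it on all 3 arrays.

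Genes for taking up and oxidising proline were bright in every culture. PUT1 (YLR142W), proline oxidase, had 14.49, 14.69 and 14.66 and ranked 22 of 5449. The high-affinity proline permease gene PUT4 (YOR348C) had 13.91, 14.26 and 14.10. PUT2 (YHR037W), pyrroline-5-carboxylate dehydrogenase, which makes the glutamate, had 13.50, 13.86 and 13.45. These 3 genes were in the brightest 10%, which holds 10.0% of all genes by construction. Their activator PUT3 (YKL015W) was mid-range with 10.61, 10.65 and 10.92. None of the 4 genes ranged over 2-fold between cultures.

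Permeases and enzymes for other nitrogen sources were bright as well. Over the lists of proline, other catabolite-repressed, allantoin and GABA genes joined, 26 of 53 measured genes lay in the brightest 10% and 0 in the dimmest, and the median member stood at percentile 88.9 of all genes. Without BY012 the count was 24. MEP2 (YNL142W), the high-affinity ammonium permease, had 14.74, 14.83 and 14.85, and GAP1 (YKR039W), the general amino acid permease, had 14.41, 14.55 and 14.51. DAL5 (YJR152W) had 14.58, 14.77 and 14.45. For these permeases the 3 cultures lay within 0.33 of each other. The allantoin and urea genes were less even: DAL7, malate synthase, had 13.16, 13.84 and 13.69, DUR3, the urea permease, had 13.20, 12.51 and 13.83, and their activator DAL81 had 10.63, 11.05 and 11.04. At the dim end of the repressible genes stood AGP1, a broad amino acid permease whose known inducer is external amino acids, with 9.19, 9.13 and 10.52.

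The GATA factors differed in brightness within each role. GAT1, an activator, had 13.42, 13.30 and 13.28, and GLN3, the other activator, had 9.89, 9.80 and 10.22, a difference of 3.36 ± 0.26 (SD, n = 3 arrays). DAL80, a repressor, had 13.95, 14.17 and 14.25, and its relative GZF3 had 11.05, 11.19 and 11.34, a difference of 2.93 ± 0.04 (SD, n = 3). The brighter member of each pair, GAT1 and DAL80, is itself known as a target of nitrogen catabolite repression. GCN4, the activator of amino acid synthesis, ranked 34 with 14.46, 14.51 and 14.52. Its protein level is known to be set by translation, which these arrays do not read.

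Ammonium assimilation was also in the bright range, with 7 of 12 measured genes in the brightest 10%. GLN1, glutamine synthetase, had 13.98, 14.30 and 13.60, and GDH2, the NAD-dependent glutamate dehydrogenase that releases ammonium, had 13.76, 14.11 and 13.06. GLT1, glutamate synthase, had 13.18, 13.34 and 13.84. GDH1, the NADP-dependent dehydrogenase that fixes ammonium, had 13.27, 14.09 and 12.35. Within this list BY012 was highest for 7 of 12 genes, GLT1 among them, and lowest for 4, with GLN1, GDH2 and GDH1 among those. Over all genes as deposited it was highest for 48.7% and lowest for 29.8%. The GABA genes were spread: UGA1, GABA transaminase, averaged 13.10, UGA2, succinate semialdehyde dehydrogenase, had 11.39, 11.47 and 12.66, their activator UGA3 had 10.99, 10.56 and 11.16, and the permease gene UGA4 averaged 10.58.

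Sugar metabolism was bright at glycolysis and dim at the use of other sugars. Of 22 measured glycolytic and fermentative genes, 19 lay in the brightest 10%, with a median of 14.09. The dimmest of them was PYK2, the minor pyruvate kinase, with 11.11, 10.49 and 10.41. Among transporters, HXT3 had 13.59, 14.00 and 14.03 and HXT1, the low-affinity transporter, had 13.02, 13.75 and 13.43. The levels of HXT5 and HXT7, the latter read by a probe set that several transcripts share, depended more on the culture. HXT5 had 11.56 in BY008 and 14.23 in BY012, and HXT7 had 11.93 in BY008 and 13.91 in BY012. In BY003 both lay between these values. In BY012 HXT5 thus exceeded HXT3, and HXT7 exceeded HXT1. Of 16 hexose transporters and sensors, 8 lay in the dimmest 10%, and HXT8 had 4.25, 4.58 and 4.81. Galactose and maltose genes each had 3 of 6 members in the dimmest 10%. GAL2, the galactose permease, had 6.74, 6.83 and 7.13, and GAL1, galactokinase, had 10.06, 10.09 and 10.88. Glucose-repressed carbon genes had a median of 10.30, with 6 of 23 in the dimmest 10% and 0 in the brightest. ADH2, the alcohol dehydrogenase used on ethanol, had 9.84, 10.06 and 9.14, and SUC2, invertase, had 10.01, 10.39 and 10.16.

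The protein synthesis machinery separated into ribosome structure and ribosome assembly. Of 129 measured cytosolic ribosomal protein genes, 100 lay in the brightest 10%, and 113 did so without BY012. RPL1B had 14.49, 14.50 and 14.26, and RPS23A had 14.53, 14.50 and 14.43. The only one in the dimmest 10% was RPL41A, which encodes a peptide of very few residues, with 6.78, 7.15 and 4.40. By contrast, 0 of 59 ribosome assembly factors lay in the brightest 10% and 6 lay in the dimmest, or 1 without BY012, with a median of 10.21 against 11.11 for all genes. The brightest was NOP10, of the pseudouridylation complexes, with 13.17, 12.64 and 12.90, and the dimmest was MAK16, of large-subunit assembly, with 9.03, 8.48 and 8.02. Mitochondrial ribosomal proteins sat in the middle, with 63 genes at a median of 11.18, 0 in either the brightest or the dimmest 10% and 0 with a range of 2-fold or more. Translation factors spanned the scale: TEF2, elongation factor 1A, had 14.88, 14.92 and 14.87 with a probe set that several transcripts share, and ANB1, the hypoxic form of eIF5A, had 9.85, 8.80 and 9.39.

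Other bright functions were chromatin, the vacuole, folding and respiration. Of 10 histone genes, 8 lay in the brightest 10%. HTB1, a histone H2B gene, had 14.47, 14.53 and 14.57, and the centromeric histone CSE4 had 11.21, 11.05 and 11.31. The proton pump of the vacuole had 12 of 15 subunits there, led by VMA4 with 14.23, 14.39 and 14.33. Vacuolar hydrolases had 7 of 13, among them the carboxypeptidase CPS1 with 14.38, 14.72 and 14.29 and the proteinase PEP4 with 14.15, 14.27 and 14.23. Chaperones had 17 of 27, with SSA1, a cytosolic Hsp70, at 14.33, 14.26 and 14.64. ATP synthase had 11 of 17, with ATP1, the alpha subunit, at 14.26, 14.13 and 14.21, and this count was 9 without BY012. Respiratory chain genes had 11 of 23 with BY012 and 7 without it.

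**Figure D1:**
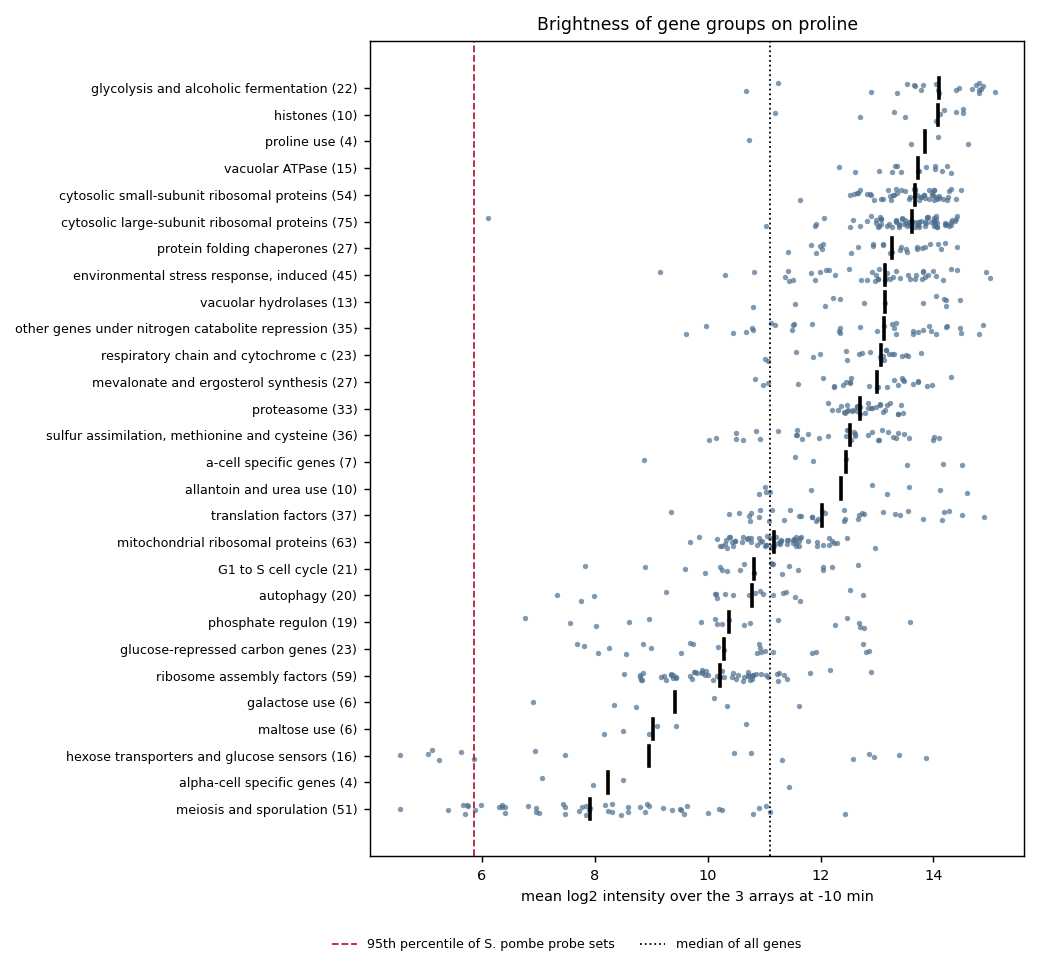
Mean log2 intensity over the 3 arrays at -10 min (horizontal axis) for the genes of 28 lists, with the number of measured genes in brackets; each point is a gene, black bars are list medians, the dashed line is the 95th percentile of S. pombe probe sets (5.86) and the dotted line the median of all genes (11.11). Glycolysis, histones, proline use and ribosomal proteins lie at the top, ribosome assembly factors lie mostly below the median of all genes, and meiosis genes lie lowest.

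Among the lists, meiosis and sporulation had the lowest median. Of 51 meiosis and sporulation genes, 36 lay in the dimmest 10%, with a median of 7.92. The dimmest member of the list averaged 4.54. The brightest member was ADY3, of the prospore membrane, with 11.74, 12.84 and 12.70. UME6, a regulator of meiotic genes, had 11.09, 10.39 and 11.23, near the median of all genes. MEI5 (YPL121C) and SAE3, partners in meiotic recombination that are not in this list, were among the 15 dimmest genes of all. MEI5 had 3.82, 3.98 and 3.88, and SAE3 had 4.12, 3.79 and 4.74. PFS1, of spore formation, FMT1, which formylates the mitochondrial initiator tRNA, and TDA8 were the other named genes among these 15. Only a systematic name was given for 10 of the 15. Genes without a standard name made up 181 of the 545 dimmest and 20 of the 545 brightest. The dimmest 10% held 429 genes in common between the 3 arrays, against 356 for the brightest 10%.

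Paralogs showed which copy of a duplicated enzyme was the bright one on proline. Of 82 sets, 77 had at least 2 measured members, and in 57 of these the same member was brightest on all 3 arrays. In 28 of the 57 it led by at least 2-fold on every array. The largest mean difference was 6.0 ± 0.89 (SD, n = 3) for CTT1, the cytosolic catalase, over CTA1, the peroxisomal catalase. HYP2, the aerobic eIF5A, exceeded ANB1 by 5.16 ± 0.51, and CDC19 exceeded PYK2 by 4.18 ± 0.40. TSA1, the main cytosolic peroxiredoxin, exceeded TSA2 by 4.05 ± 1.47. These 4 sets were those with a mean difference of at least 4.

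Several sets of nitrogen and carbon metabolism had the same leader in every culture. Among ammonium permeases, MEP2 exceeded MEP1 by 2.1 ± 0.24 and MEP3 had 10.61, 10.67 and 11.10. Among glutamate dehydrogenases, GDH1 exceeded GDH3, the form known from growth on ethanol, by 2.60, 3.69 and 1.38. Cytosolic aspartate aminotransferase AAT2 exceeded mitochondrial AAT1 by 2.29 ± 0.14. GPD1, glycerol-3-phosphate dehydrogenase of osmotic adaptation, exceeded GPD2, the form of anaerobic redox balance, by 3.82 ± 0.26, with GPD2 at 10.00, 9.98 and 10.03. ACS2, the acetyl-CoA synthetase used on glucose, exceeded ACS1 by 2.48 ± 0.47. LEU4 exceeded LEU9, both isopropylmalate synthases, by 3.44 ± 0.76. ADH1 exceeded mitochondrial ADH3 by 0.99 ± 0.04, and VPH1, the vacuolar form of a proton pump subunit, exceeded the Golgi form STV1 by 1.54 ± 0.03. In other sets the copies were level: HMG2 exceeded HMG1, both HMG-CoA reductases, by 0.14 ± 0.01, and COX5A and COX5B, aerobic and hypoxic forms of a cytochrome oxidase subunit, differed by 0.02 ± 0.06. SDH4 was dimmer than its relative SHH4 on every array, by 0.58, 0.57 and 1.06.

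**Figure D2:**
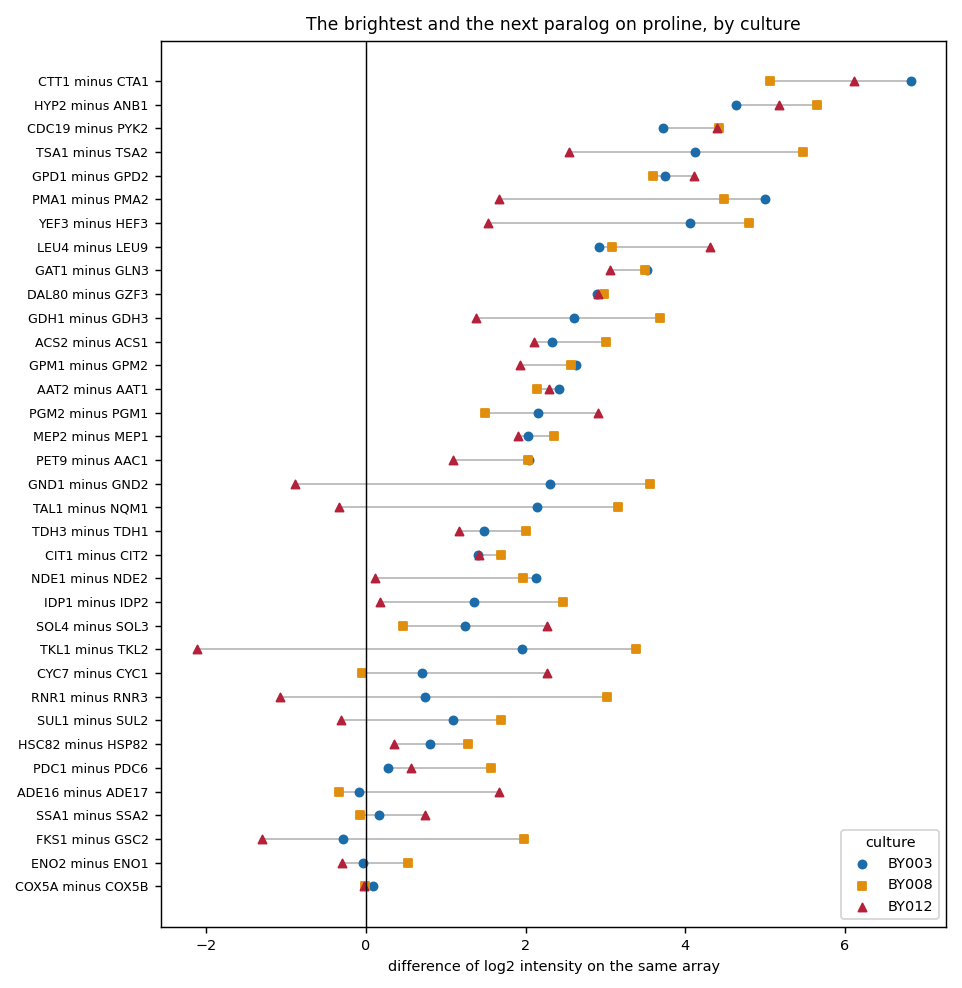
Difference of log2 intensity (horizontal axis) between the brightest and the next member of 35 paralog sets, with the brightest by mean named first; circles, squares and triangles are cultures BY003, BY008 and BY012, and grey bars join them. CTT1 minus CTA1 lies farthest to the right, DAL80 minus GZF3 shows the cultures together, and TKL1, GND1, TAL1, RNR1 and SUL1 have the BY012 triangle left of 0.

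Ribosomal proteins come mostly as pairs of near-identical genes, and only pairs whose copies have probe sets of their own can be compared. Of 59 pairs, 34 met this and 25 were left out. The median difference between copies was 0.61, with the A copy brighter in 21 pairs and the B copy in 13. The sign was the same on all 3 arrays in 27 pairs, and the difference was at least 2-fold on all 3 in 5. RPL22A exceeded RPL22B by 2.37 ± 0.30 (SD, n = 3), RPS9B exceeded RPS9A by 1.71 ± 0.23, and RPL13B exceeded RPL13A by 1.60 ± 0.51. RPL15A exceeded RPL15B by 1.52 ± 0.17, and RPS14A exceeded RPS14B by 1.46 ± 0.39. The copies may still share probe signal, so these differences are uncertain. RPL9B exceeded RPL9A by 1.86 in BY012, against 0.44 in BY003 and 0.70 in BY008, with RPL9A at 10.60 in BY012 against 12.53 and 12.55.

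Most genes varied little between the cultures. The median SD over the 3 arrays was 0.265, with quartiles of 0.160 and 0.410, and the median range was 0.50. With 1 array left out, the median SD over the other 2 was 0.160 without BY012, 0.233 without BY008 and 0.262 without BY003. An SD of 2 arrays is not directly comparable with that of 3. A range of 2-fold or more was seen in 782 genes (14.4%) and of 4-fold or more in 132 (2.42%). The 25 brightest genes had a median SD of 0.060, and 0 of them ranged 2-fold. By brightness, the median SD was 0.231 in the brightest 10% and 0.306 in the dimmest 10%. The steadiest genes included bright ones, such as PDC1 with 14.89, 14.89 and 14.88 and AHP1 with 14.92, 14.92 and 14.91, and mid-range ones, such as PRP19, a splicing factor and ubiquitin ligase, with 11.37, 11.36 and 11.38.

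**Figure D3:**
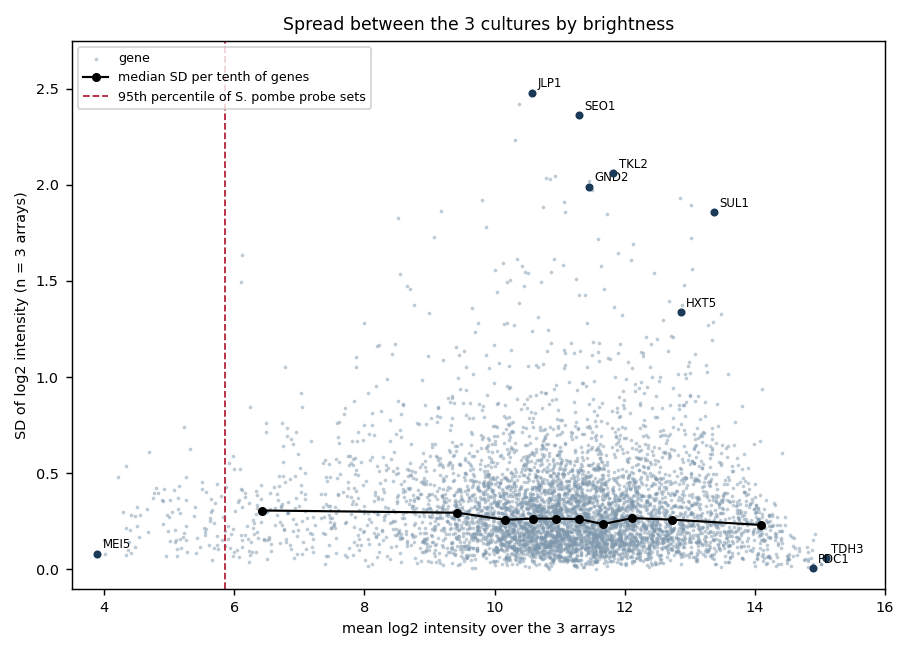
SD of log2 intensity over the 3 cultures (vertical axis) against mean log2 intensity (horizontal axis) for 5449 genes, with the median SD of each 10% of genes by brightness as a black line and the 95th percentile of S. pombe probe sets as a dashed line. The median SD lies between 0.231 and 0.306 throughout, single genes such as JLP1 and SEO1 exceed 2, and the brightest genes, such as TDH3, lie near 0.

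A gene was counted as apart in a culture when that array lay at least 2-fold above, or below, both others. BY012 was above in 178 genes (3.27%) and below in 87 (1.60%). BY008 was above in 27 (0.496%) and below in 67 (1.23%), and BY003 was above in 55 (1.01%) and below in 11 (0.202%). At 4-fold the shares were 0.587% above and 0.202% below in BY012, 0.0367% above and 0.0367% below in BY008, and 0.110% above and 0.0184% below in BY003. The excess of genes above in BY012 depended on scaling. At 2-fold with array medians subtracted, 137 genes were above and 120 below in BY012. After quantile normalization, 140 were above and 118 below there. Without a size limit and as deposited, BY003 was the highest array for 20.7% of genes, BY008 for 30.6% and BY012 for 48.7%. They were lowest for 33.1%, 37.1% and 29.8%. With array medians subtracted, they were highest for 1218, 2129 and 2102 of 5449 genes and lowest for 1672, 1631 and 2146. After quantile normalization, they were highest for 1306, 1961 and 2182 and lowest for 1650, 1711 and 2088.

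In BY003, genes for scavenging and assimilating sulfur were the highest group. Of 36 sulfur genes, 13 were at least 2-fold above both other cultures there, and BY003 was highest in 27. JLP1 (YLL057C), which releases sulfite from sulfonates, had 13.43 in BY003 against 9.43 in BY008 and 8.89 in BY012, 16-fold above the nearer culture. MUP1 (YGR055W), the high-affinity methionine permease, had 13.22 in BY003 against 10.30 in BY008 and 9.28 in BY012. SEO1 (YAL067C), a putative permease, had 13.79 in BY003 against 11.01 in BY008 and 9.09 in BY012. In these uptake and salvage genes BY003 lay well above both other cultures. MMP1, the S-methylmethionine permease, had 14.02 in BY003 against 12.37 and 10.95, and MET1, of siroheme synthesis, had 13.41 in BY003 against 11.37 and 9.99.

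In BY012, core sulfate assimilation was low, with 18 of the 36 sulfur genes at least 2-fold below both other cultures. SUL1 (YBR294W), a sulfate permease, had 11.24 in BY012 against 14.63 in BY003 and 14.23 in BY008. CYS3 (YAL012W), cystathionine gamma-lyase, had 10.86 in BY012 against 14.45 and 13.72. MET3 (YJR010W), ATP sulfurylase, had 10.69 in BY012 against 14.44 and 13.41. For these core genes BY003 and BY008 lay nearest each other, while for JLP1 and MUP1 BY008 and BY012 did. SUL1 exceeded its paralog SUL2 by 1.09 in BY003 and 1.69 in BY008, but SUL2 exceeded SUL1 by 0.31 in BY012 (a difference of -0.31 for SUL1 minus SUL2). In all, 28 of 36 sulfur genes ranged 2-fold or more, and the list had a median of 11.25 for BY012 against 13.27 for BY003 and 12.42 for BY008.

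**Figure D4:**
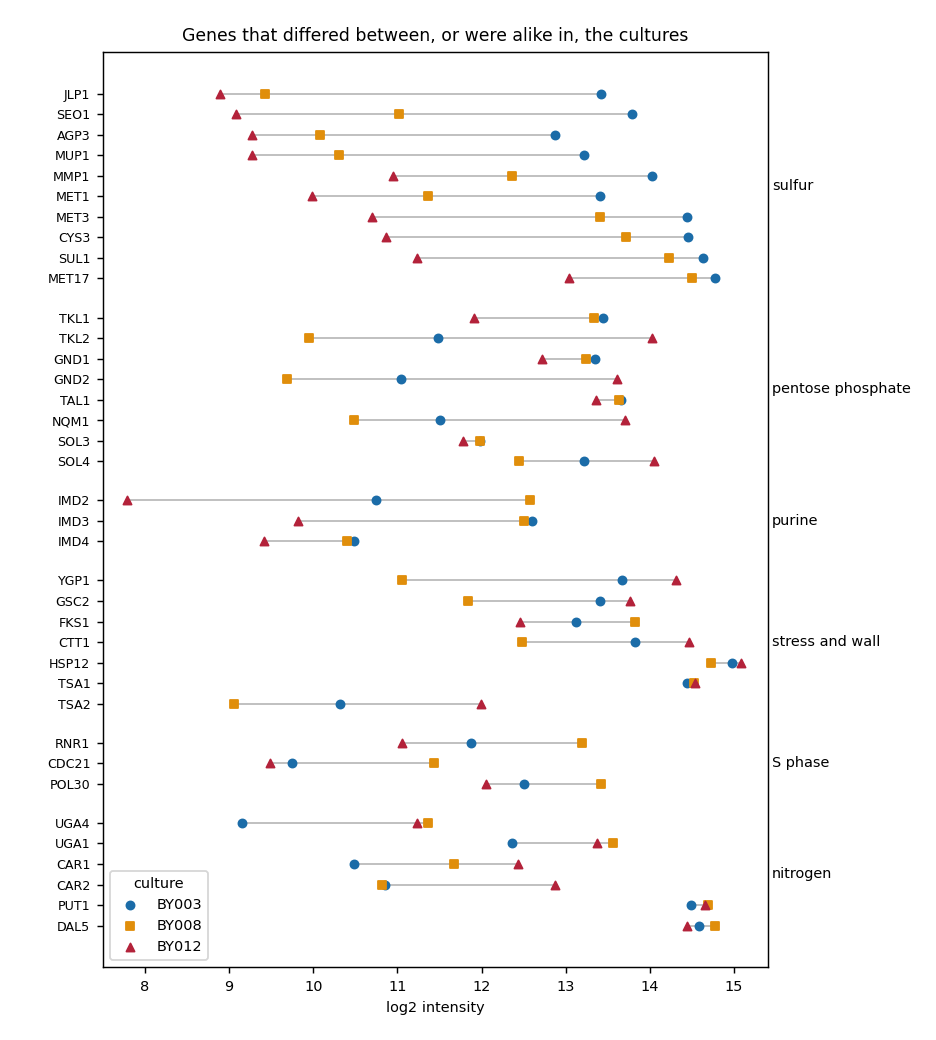
Log2 intensity (horizontal axis) of 37 genes in cultures BY003 (circles), BY008 (squares) and BY012 (triangles), grouped by function, with grey bars joining the cultures. The BY003 circles of JLP1, SEO1 and MUP1 lie far right of the others, the BY012 triangles of SUL1, CYS3 and IMD2 lie far left, and PUT1 and DAL5 show the 3 cultures together.

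Ribosome assembly was also highest in BY003. BY003 was the highest array for 59 of 59 assembly factors, and 12 of them were at least 2-fold above both other cultures. The median member was 0.84 above the mean of BY008 and BY012. The large-subunit ribosomal proteins differed less, with a median of 13.85 in BY003 against 13.81 in BY008 and 13.22 in BY012. Some assembly factors were also low in BY012. NOP1, fibrillarin, had 9.51 in BY012 against 11.59 in BY003 and 11.34 in BY008, and CBF5, the pseudouridine synthase, had 10.29 in BY012 against 12.19 and 11.58. BY003 was highest as well for 12 of 14 genes of cytokinesis and daughter cells and for 43 of 63 mitochondrial ribosomal proteins, with small shifts of 0.32 and 0.17 in the median.

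The 11 genes at least 2-fold below in BY003 included genes of 2 nitrogen lists and others. UGA4 (YDL210W), the GABA permease, had 9.15 in BY003 against 11.36 in BY008 and 11.23 in BY012, and UGA1 (YGR019W) had 12.36 in BY003 against 13.57 and 13.37. CAR1 (YPL111W), arginase, had 10.49 in BY003 against 11.68 and 12.43. CHA1, which deaminates serine and threonine, had 9.38 in BY003 against 10.51 and 11.12, and DSD1, D-serine dehydratase, had 12.38 in BY003 against 13.72 and 13.43. With array medians subtracted, or after quantile normalization, 6 of the 11 kept a difference of 2-fold, UGA4, CAR1 and CHA1 among them but not UGA1 or DSD1. BY003 was lowest for 22 of 35 other genes under nitrogen catabolite repression, although GAP1, MEP2 and DAL5 stayed within 0.33 of the others. Iron uptake moved the other way in part, with 4 of 26 iron genes at least 2-fold above in BY003. FIT2, a wall mannoprotein for siderophore iron, had 12.90 in BY003 against 10.06 and 11.19.

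In BY008, genes expressed at the start of S phase were high. BY008 was highest for 17 of 21 genes of the G1 to S transition, and 5 were at least 2-fold above both other cultures. RNR1 (YER070W), the large subunit of ribonucleotide reductase, had 13.20 in BY008 against 11.88 in BY003 and 11.06 in BY012. CDC21 (YOR074C), thymidylate synthase, had 11.43 in BY008 against 9.74 and 9.48, and POL30, the replication clamp PCNA, had 13.42 in BY008 against 12.51 and 12.05. Among histones BY008 was highest in 7 of 10 genes, or 9 with array medians subtracted, but with a median only 0.06 above the mean of the others. Their median of 14.08 lies near the top of the scale, where differences may be compressed, so a shared rise cannot be judged from them. BY008 was also highest for 12 of 12 aromatic amino acid genes, 15 of 15 proton pump subunits and 28 of 33 proteasome genes, by medians of 0.50, 0.24 and 0.24. Over all genes as deposited it was highest for 30.6%. These counts were 12, 15 and 31 with array medians subtracted, and 12, 12 and 27 after quantile normalization.

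Stress genes were lowest in BY008. Of 45 genes of the environmental stress response, 10 were at least 2-fold below both other cultures in BY008, 13 were at least 2-fold above both in BY012, and BY008 was lowest in 38. YGP1 (YNL160W), a secreted glycoprotein of starvation, had 11.06 in BY008 against 13.67 in BY003 and 14.31 in BY012. GSC2, the stress-induced glucan synthase, had 11.84 in BY008 against 13.41 and 13.76, and INO1, inositol phosphate synthase, had 9.47 in BY008 against 11.44 and 11.07. CTT1 had 12.48 in BY008 against 13.83 and 14.46. The bright HSP12 and HOR7 moved little, with ranges of 0.36 and 0.05 near the top of the scale. BY012 was the highest array for 45 of 45 stress genes as deposited, for 42 with array medians subtracted and for 43 after quantile normalization. The rRNA and 3-prime measures given above were lowest in BY008 as well, and their part in this was not tested.

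In BY012, purine synthesis was low and glucose-repressed carbon genes were high. Of 16 purine genes, BY012 was lowest in 15 and at least 2-fold below both others in 5, and 8 ranged 2-fold or more. The exception was ADE16, AICAR transformylase, with 14.03 in BY012 against 13.37 and 13.31. IMD2 (YHR216W), IMP dehydrogenase, read by a probe set that several copies share, had 7.78 in BY012 against 10.75 in BY003 and 12.58 in BY008. IMD3 (YLR432W) had 9.82 in BY012 against 12.60 and 12.50, and ADE12, adenylosuccinate synthase, had 11.18 in BY012 against 12.88 and 13.10. Of 23 glucose-repressed genes, 9 were at least 2-fold above both others in BY012 and BY012 was highest in 21. POT1, thiolase of fatty acid oxidation, had 10.31 in BY012 against 7.85 and 7.48, and HXT5, a hexose transporter of slow growth, had 14.23 in BY012 against 12.79 and 11.56. SUC2 and ADH2 did not share this. SUC2 had 10.16 in BY012 against 10.01 in BY003 and 10.39 in BY008, and ADH2 had 9.14 in BY012 against 9.84 and 10.06.

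Single genes stood high in BY012 as well. ARO10 (YDR380W), phenylpyruvate decarboxylase of the Ehrlich pathway, had 10.62 in BY012 against 7.39 and 7.53, 8.52-fold above the nearer culture. CAR2 (YLR438W), ornithine aminotransferase, had 12.88 in BY012 against 10.85 and 10.82. NDE2, an external NADH dehydrogenase, had 13.22 in BY012 against 10.42 and 9.56. HIS4, of histidine synthesis, was low there instead, with 11.69 in BY012 against 13.01 and 13.51. BY012 was lowest for 16 of 18 aminoacyl-tRNA synthetases, 10 of 13 serine, glycine and one-carbon genes and 126 of 129 ribosomal proteins, but for 5 of 10 arginine and 5 of 9 lysine synthesis genes, while GCN4 itself had 14.52 in BY012 against 14.46 and 14.51.

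**Figure D5:**
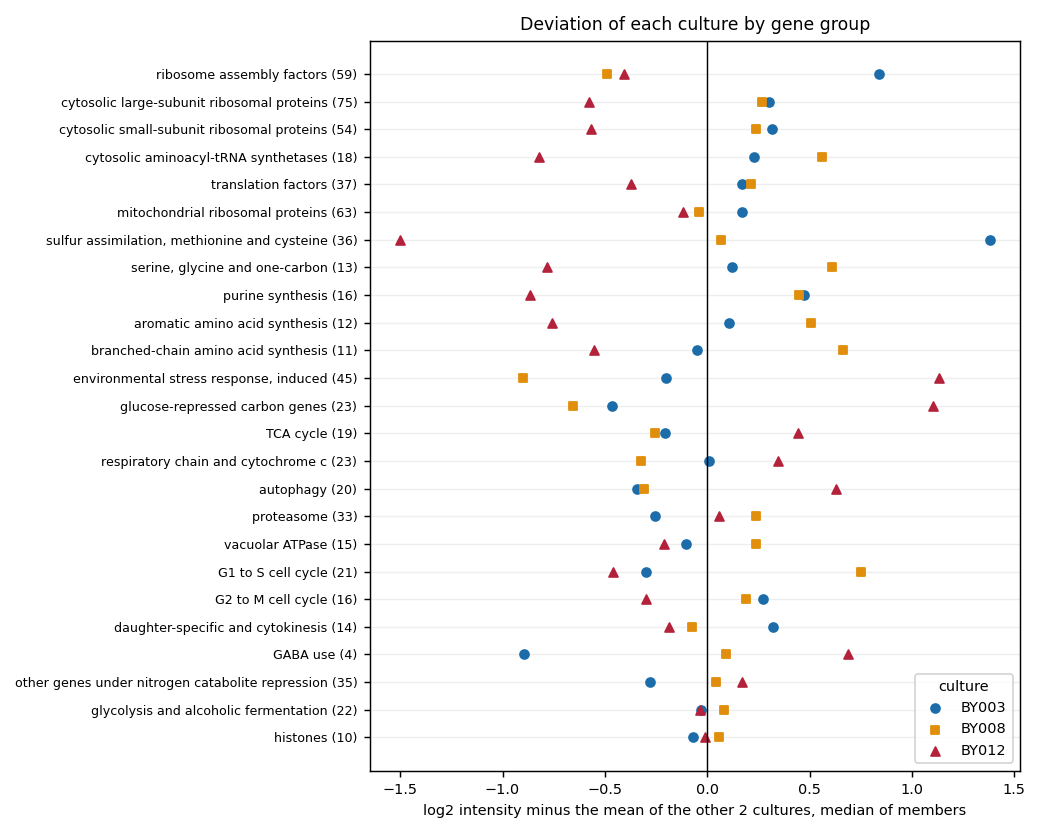
Median over list members of the log2 intensity in a culture minus the mean of the other 2 cultures (horizontal axis), for 25 lists with the number of genes in brackets; circles are BY003, squares BY008 and triangles BY012. Ribosome assembly and sulfur genes lie to the right in BY003 (0.84 and 1.38), stress genes lie to the right in BY012 (1.13) and to the left in BY008 (-0.90), and glycolysis and histones lie near 0 in all 3.

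The paralog that led depended on the culture in 20 of the 77 sets, and BY012 alone had another leader in 12 of them. The pentose phosphate pathway, which makes NADPH and ribose phosphate, showed this in 3 sets. TKL2 (YBR117C), the minor transketolase, had 14.03 in BY012 against 11.48 and 9.95, and TKL1 (YPR074C), the major one, had 11.91 in BY012 against 13.44 and 13.34. TKL1 minus TKL2 was therefore -2.12 in BY012 against 1.96 in BY003 and 3.39 in BY008. GND1 minus GND2, both 6-phosphogluconate dehydrogenases, was -0.89 in BY012 against 2.31 and 3.56. TAL1 minus NQM1, transaldolase and its relative, was -0.34 in BY012 against 2.15 and 3.15. In these sets the second copy was the one that moved most: GND2 ranged over 3.92 and GND1 over 0.64, and NQM1 over 3.22 and TAL1 over 0.30. The fourth set of the pathway, SOL4 minus SOL3, both 6-phosphogluconolactonases, kept its sign, with 2.27 in BY012 against 1.24 and 0.47.

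In other sets as well, the difference between copies narrowed or reversed in BY012. PMA1, the plasma membrane proton pump, exceeded PMA2 by 1.66 in BY012 against 5.0 and 4.49. YEF3, translation elongation factor 3, exceeded HEF3 by 1.54 in BY012 against 4.07 and 4.80, and NDE1 exceeded NDE2 by 0.12 in BY012 against 2.13 and 1.97. RNR1 minus RNR3, the damage-inducible form, was -1.08 in BY012 against 0.74 and 3.02. Both copies moved, with a range of 2.14 for RNR1 and 1.95 for RNR3. BY008 alone had another leader in 7 sets: FKS1 exceeded GSC2, both glucan synthases, by 1.98 in BY008, while FKS1 minus GSC2 was -0.29 in BY003 and -1.31 in BY012. BY003 alone had another leader in 1 set, COX5, where all differences were under 0.10. Over all 77 sets the difference moved by at least 2 between arrays in 17, and the GATA factor, ammonium permease and aspartate aminotransferase sets named above were not among them.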

How the data were processed

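RNA of 3 cultures at -10 min was hybridised to Affymetrix Yeast Genome 2.0 arrays. The deposited table holds 1 linear intensity value per probe set and array; per the submitters' processing notes R 2.10.0, affy and RMA were used, with order and settings not given in the sources used here, and any effect of that normalization on differences between cultures is unknown. Log2 was taken here. Of 10928 probe sets, 5498 match an S. cerevisiae gene in the supplied annotation, 1747 S. pombe and 3470 no listed gene; 166 controls and 47 reporters were left out. The brightest probe set was kept for 47 genes with several, 118 genes are read by probe sets that may bind several transcripts, and 12 symbols were updated by gene identifier.

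Computed with Python 3.11.15, pandas 2.3.3 and numpy 2.4.6 were ranks of the mean, SD and range over 3 arrays, within-array differences of paralogs, and genes with 1 array at least 2-fold above or below both others. No significance test was run. Members, 54 lists and 82 paralog sets were chosen with earlier results of these data known. Genes named were the 25 brightest, 15 dimmest, the 4 brightest, the dimmest and the 3 of largest range in each list, paralog members, the 10 ribosomal protein pairs of largest difference, the 10 genes farthest above and below in each culture, the 20 of largest and 10 of smallest range, and a set of fixed genes. Alternatives were other scalings, thresholds, probe-set rules and leaving out each array.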

Additional observations from a re-analysis of the deposited data

Results flagged for a closer look

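Probe sets outside the genes also gave signal. Of the 3470 probe sets with no listed gene, 428 (12.3%) had a mean above the 95th percentile of S. pombe probe sets, against 5.04% of the S. pombe probe sets by construction. The highest had 14.39, and 15 lay in the range of the genes' brightest 10%. Among the 428, BY012 was at least 2-fold above both other cultures in 20 and below in 12. Over all 5449 genes these counts were 178 (3.27%) and 87 (1.60%). These probe sets are unnamed here, and no cause was tested. Single cultures were not assessed as outliers, since the group holds 3 arrays.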

How the results depend on the processing

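No paired analysis was possible because the values come from 1 group of 3 arrays and from no test. Of 94 alternative values for 28 results, 80 lay within 1.5 times the value reported and 14 did not, and each of these follows from a stricter limit, fewer arrays or a scaling. With the brightest or dimmest 5% in place of 10%, 6 lists (not 12) had at least as many members inside the bright class as outside it, and 1 (not 5) for the dim class. Asking for 2-fold on every array left 28 of 57 paralog sets and 5 of 27 ribosomal protein pairs. At 4-fold, 32 genes were above and 11 below in BY012, 2 above and 2 below in BY008, and 6 above and 1 below in BY003. With array medians subtracted, or after quantile normalization, 6 genes (not 11) were below in BY003. BY003 was lowest for 32 of 33 proteasome genes as deposited, for 23 with array medians subtracted and for 21 after quantile normalization, chosen after seeing the data. Without each array in turn, the median SD was 0.160 to 0.262; the lowest was without BY012. Counts of genes apart in 1 culture need all 3 arrays and have no such value.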

Other observations

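Sterol synthesis was bright, with 12 of 27 genes in the brightest 10%. ERG25, a C-4 methyl sterol oxidase, had 14.31, 14.12 and 14.50 in BY003, BY008 and BY012, and ERG11, the sterol demethylase, had 13.87, 13.93 and 14.16. The phosphate regulon had a median of 10.38, with PHO84, the high-affinity phosphate permease, at 7.52, 7.36 and 7.78 and VTC1, of polyphosphate synthesis, at 13.50, 13.68 and 13.57. Autophagy genes had a median of 10.78, and BY012 was highest in 19 of 20 as deposited, against 48.7% of all genes. The count was 17 with array medians subtracted and 16 after quantile normalization, where BY012 was highest for 2102 and 2182 of 5449 genes. ATG1, the initiating kinase, had 12.43 in BY012 against 11.08 and 11.11. Flocculin genes were dim to mid-range, with FLO11 at 8.29, 8.94 and 8.88 and FLO9 at 11.82, 11.66 and 12.41. Near-identical copies among them make single values uncertain. CUP1-1, metallothionein, read by a probe set that both copies share, had 14.94, 14.72 and 15.01.

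The 3-prime measures, ribosomal RNA signal and the number of arrays limit what these values can show: a culture stands for 1 array, so a difference between cultures cannot be told apart from a difference between arrays.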
